A study of Mus musculus with 9 samples.

Results

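The 10 genes described here, Tsc22d3, Fkbp5, Sgk1, Glul, Zbtb16, Hsd11b1, Nfkbia, Lcn2, Fam107a and Rasd1, are genes induced by glucocorticoids in many cell types, and they were chosen by symbol from the 19094 genes listed in the RNA-seq files. 3T3-L1 is a mouse fibroblast-like line, derived from a single clone, whose preadipocytes become lipid-storing adipocytes under a hormone cocktail. RNA was sequenced at 3 stages with 3 replicates each, 9 samples in all. The day 0 harvest preceded the induction medium, made of dexamethasone (a synthetic glucocorticoid), IBMX (a phosphodiesterase inhibitor that raises cyclic AMP) and insulin. Day 4 cells had received the induction medium for 2 days and then a maintenance medium with insulin for 2 days, and day 8 cells had been kept in that insulin medium for 4 days more. Thus dexamethasone had been withdrawn 2 days before the day 4 harvest, no sample was taken in its presence, and no arm differentiated without it, so that a response to dexamethasone and differentiation itself cannot be told apart in these data. The labels carry the same cell type name, adipocytes, for all 9 samples, day 0 included. The study's methods call the samples mixtures of RNA, and nothing says that the replicates came from separate cultures, so that p-values measure the spread between these samples only. The depth was 18216114 to 20452144 expected counts per sample.

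Glucocorticoids enter the cell and bind the glucocorticoid receptor, which is held by Hsp90 and its co-chaperones in the cytoplasm, then moves to the nucleus and binds DNA as a dimer at palindromic elements. Bound receptor raises transcription of genes such as those described here and, through other contacts, lowers that of many inflammatory genes. In preadipocytes dexamethasone is part of the standard adipogenic cocktail, and genes of this kind usually respond within hours and return after the hormone is withdrawn. The 10 genes act at different points. Fkbp5 is a co-chaperone that lowers the receptor's affinity for hormone, Hsd11b1 is the enzyme that regenerates active glucocorticoid inside cells, and Tsc22d3 (GILZ), Zbtb16 (PLZF) and Nfkbia (IκBα, the inhibitor of NF-κB) act on transcription. Sgk1 is a kinase activated downstream of PI3-kinase, Rasd1 is a Ras-like GTPase, Glul makes glutamine, Lcn2 is a secreted siderophore-binding lipocalin, and Fam107a is an actin-associated protein.

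The stretches upstream of the start sites were read first, since the receptor's element can be written out in letters. RefSeq promoter windows (GRCm38.p6, 250 bases before to 50 after a start) were found for 8 of the 10 genes, all but Zbtb16 and Rasd1. Both strands were searched for the palindromic element (AGAACA, any 3 bases, TGTTCT), for a relaxed form of it (GNACA, any 3 bases, TGTNC), which overlaps the first wherever that occurs, for a single arm of the palindrome (AGAACA) and for a κB-like site (GGGA, any 4 bases, CC). The 250 bases before the start are shown for the genes whose windows held an element that bears on them, with the letters that match the element named for each line in capitals. The first line holds the full palindrome, the second the relaxed element, the third a single arm read on the opposite strand, and the fourth a pair of κB-like sites, 1 on each strand.
Sgk1: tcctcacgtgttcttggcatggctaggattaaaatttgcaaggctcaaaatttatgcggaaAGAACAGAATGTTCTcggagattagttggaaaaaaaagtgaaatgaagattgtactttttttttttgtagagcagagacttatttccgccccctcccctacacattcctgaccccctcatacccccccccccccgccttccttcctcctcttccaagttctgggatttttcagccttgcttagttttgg
Fam107a: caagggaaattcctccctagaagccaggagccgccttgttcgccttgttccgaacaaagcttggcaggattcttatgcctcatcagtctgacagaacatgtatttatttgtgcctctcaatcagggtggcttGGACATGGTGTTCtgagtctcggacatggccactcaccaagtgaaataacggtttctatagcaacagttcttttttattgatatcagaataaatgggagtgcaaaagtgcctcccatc
Tsc22d3: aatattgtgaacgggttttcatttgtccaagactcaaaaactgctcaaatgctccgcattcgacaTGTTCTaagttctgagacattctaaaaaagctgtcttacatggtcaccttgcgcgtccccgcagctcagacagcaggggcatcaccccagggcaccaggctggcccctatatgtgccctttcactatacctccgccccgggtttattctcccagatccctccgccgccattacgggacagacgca
Nfkbia: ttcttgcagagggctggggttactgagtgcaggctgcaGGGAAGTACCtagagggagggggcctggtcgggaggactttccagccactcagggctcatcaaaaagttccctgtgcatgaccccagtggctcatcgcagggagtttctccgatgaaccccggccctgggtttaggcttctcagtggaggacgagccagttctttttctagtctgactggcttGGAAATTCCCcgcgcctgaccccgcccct
These are chr10:21993640-21993889 (plus strand), chr14:8309780-8310029 (minus strand), chrX:140600523-140600772 (minus strand) and chr12:55492648-55492897 (minus strand). The full palindrome lay 189 bases before this start of Sgk1, 1 of the 6 windows of the gene, and occurred in 3 of all 32851 windows (0.00913%). The relaxed element lay 118 bases before this start of Fam107a, 1 of the 3 windows of the gene, and 120 bases before another of its starts. It was held by 0.475% of all windows and 0.537% of all genes. The single arm is common, in 19% of windows, and so is the κB-like site, in 20.7%. Each was held by 3 of the 8 genes with a window, against 21.3% and 22.9% of all genes. The single arm was found for Tsc22d3, Sgk1 and Fam107a, and the κB-like site for Nfkbia, for Fam107a, where it lies in the lower-case part of the stretch shown, and for Tsc22d3, in another of its windows. A match describes letters in a window and not a bound site, and the other 6 genes with a window had neither the full nor the relaxed element in these windows.

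All 10 genes reached day 4 with a higher mean than day 0, but they then took different courses. Levels are given as FPKM (fragments scaled to gene length and sample depth), which allows comparison between genes. Differences are log2 fold changes ± SE from edgeR's quasi-likelihood model of the counts of all 9 samples, and a gene was called where its p-value adjusted over 13154 tested genes was under 0.05 and its fold change above 2. Since these 10 genes were picked with their behaviour known, their differences are a description and no test is attached to them. Of the 10, 9 were called up and 0 down at day 4 against day 0, where 9.77% of all tested genes were called up and 7.98% down. At day 8 against day 4, 2 were called up and 6 down, where the shares over all genes were 4.24% and 2.81%. At day 8 against day 0, 6 were called up and 0 down, where the shares were 10.3% and 7.7%. The median log2 fold change of the 10 genes was 5.89, −1.38 and 3.98 in these 3 comparisons, and that of all tested genes was 0.016, −0.008 and −0.018. With Rasd1, which had 1 count at day 0, at the lower limit of its counting interval, the median of the 10 was 4.97 early and 3.98 over the whole process. The FPKM of the samples did not overlap for 9 of the 10 genes early, 9 higher and 0 lower, where 32.1% of all tested genes were higher and 39.5% lower without overlap. Late, 2 genes were higher and 8 lower without overlap, where the shares were 22.5% and 32.1%. Over the whole process 8 were higher and 1 lower, where the shares were 30.1% and 46.3%. The first 2 comparisons share the day 4 samples. In bulk RNA, fewer expressing cells and less RNA per cell cannot be told apart.

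**Figure D1:**
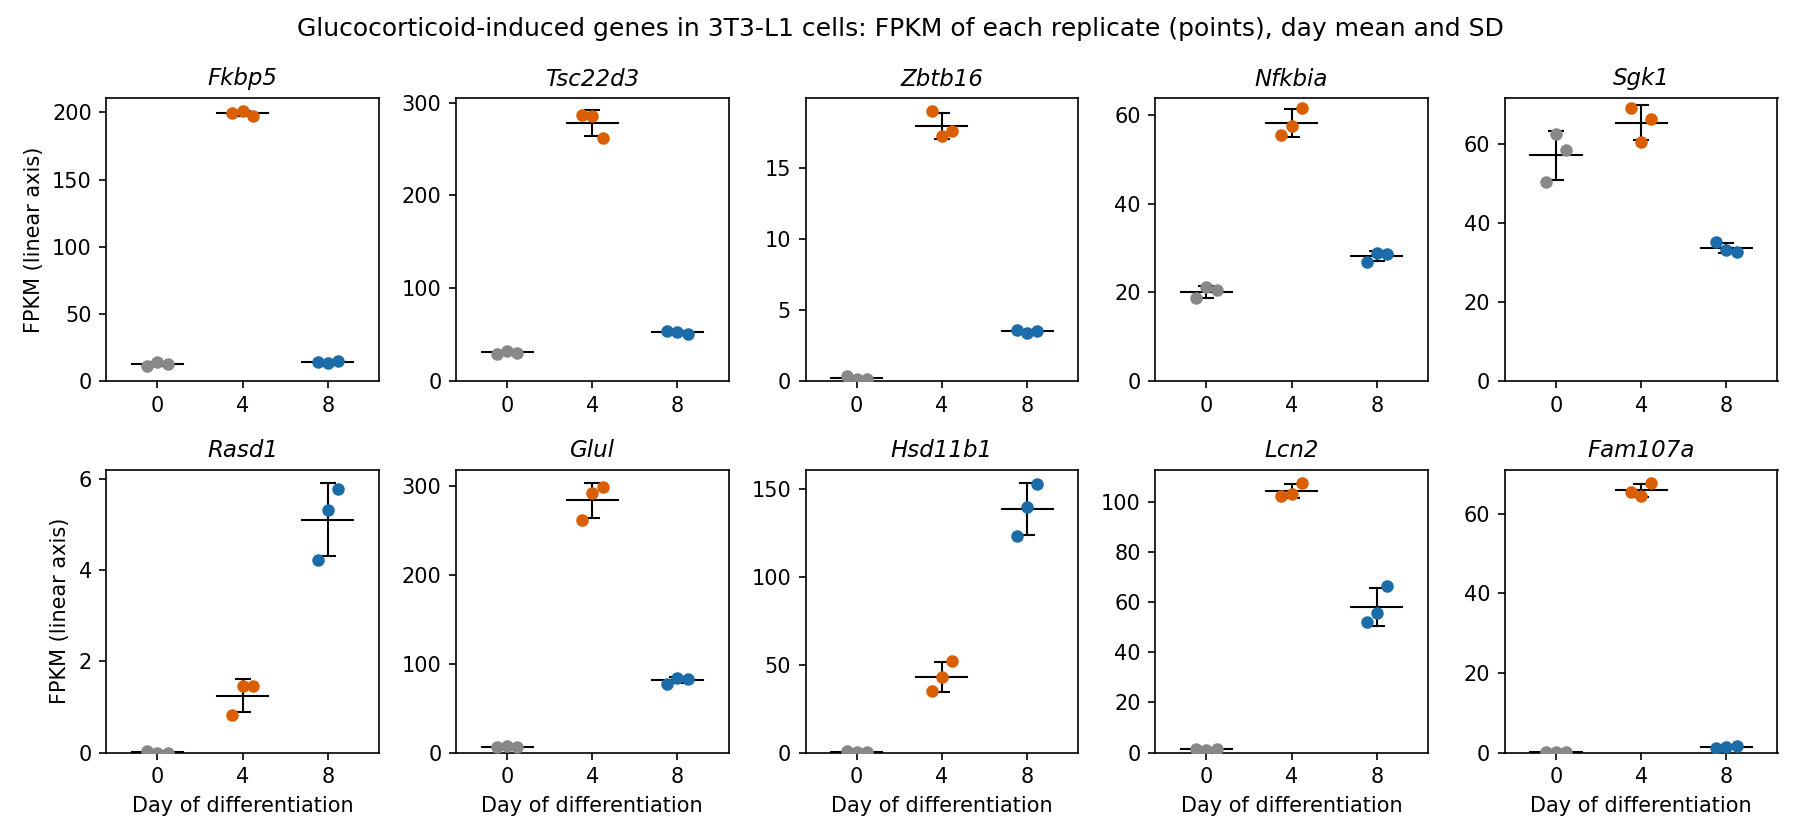
FPKM (linear axis, a separate scale for each gene) of the 10 genes against the day of differentiation, with points for the 3 replicates of each day and lines for the mean and SD. Tsc22d3, Fkbp5, Zbtb16, Nfkbia, Glul, Lcn2 and Fam107a peaked at day 4, Hsd11b1 and Rasd1 were highest at day 8, and the Sgk1 points of day 0 and day 4 overlapped.

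Fkbp5, the receptor's co-chaperone and a classical readout of receptor activity, rose and then fell back to near its first level. Its FPKM was 11.4, 14.05 and 12.7 in the day 0 samples, 199, 201 and 197 at day 4, and 14.4, 13.75 and 14.7 at day 8. The day 4 samples stood far from both other groups, whereas the day 0 and day 8 values overlapped in FPKM. In CPM (counts scaled to depth alone) they did not overlap, with day 0 at 42.8, 52.4 and 47.8 and day 8 at 57.8, 55.8 and 60.3. The log2 fold change was 4.04 ± 0.07 from day 0 to day 4, −3.76 ± 0.06 from day 4 to day 8 and 0.28 ± 0.07 from day 0 to day 8, and 7.17% of the day 4 mean was left at day 8. Ranked by FPKM among all listed genes, Fkbp5 moved from place 5604 to place 322 and back to place 5065.

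Among the regulators of transcription, Tsc22d3, a leucine-zipper protein that restrains NF-κB and AP-1, stood at 29.5, 32.4 and 30.3 FPKM at day 0, at 286, 286 and 262 at day 4, and at 54.1, 52.4 and 50.5 at day 8. The 3 groups did not overlap, with day 8 between the others. On the log2 scale it rose by 3.26 ± 0.05 early and fell by 2.35 ± 0.05 late, and day 8 remained 0.91 ± 0.05 above day 0. Zbtb16, a zinc-finger repressor, was nearly silent at day 0, with 0.32, 0.15 and 0.14 FPKM. It reached 19.0, 17.3 and 17.7 FPKM at day 4 and kept 3.58, 3.37 and 3.55 at day 8. Again no groups overlapped. The log2 fold changes of Zbtb16 were 6.53 ± 0.14 and −2.32 ± 0.09, so that 19.45% of the day 4 level was left at day 8, close to the 18.8% left of Tsc22d3. The early value of Zbtb16 rests on 34.05, 14.1 and 14.3 expected counts in the day 0 samples and ranged from 3.98 to 7.06 over the other settings. The early ratio of its summed counts was 92.7, with a 95% counting interval of 72.2 to 121.

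Nfkbia, which holds NF-κB in the cytoplasm, moved less. Its FPKM was 18.7, 21.2 and 20.5 at day 0, 55.6, 57.5 and 61.8 at day 4, and 26.9, 29.0 and 28.7 at day 8. The 3 days did not overlap. The rise was 1.60 ± 0.06 and the fall −1.002 ± 0.06 on the log2 scale, the latter so near the threshold of a 2-fold change that the call was lost under 8 of 20 other settings, with values from −0.9997 to −0.9617. Sgk1, a kinase that regulates ion channels and FOXO factors, was the exception among the 10. Its FPKM was 50.5, 62.6 and 58.4 at day 0, 69.2, 60.5 and 66.4 at day 4, and 35.1, 33.3 and 32.6 at day 8. Day 0 and day 4 overlapped in FPKM, day 8 lay below both, and no difference passed 2-fold. In CPM day 0, at 121, 148 and 139.6, lay below day 4, at 173, 152 and 165, without overlap. The log2 fold change of Sgk1 was 0.26 ± 0.07 early and −0.91 ± 0.07 late, and day 8 was −0.65 ± 0.07 from day 0. At day 0 it was the most abundant of the 10 genes, at place 1316 of all listed genes.

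Rasd1, a small GTPase first described as a dexamethasone-induced Ras protein, was the least abundant of the 10 at day 0 and day 4. It was listed in 1 day 0 sample, at 0.03 FPKM and 1 count, and had no row in the other day 0 files. It stood at 0.83, 1.46 and 1.45 FPKM at day 4 and at 4.21, 5.32 and 5.77 at day 8. The days did not overlap, and the level at day 8 was 4.09 times that at day 4. The summed counts, 121 at day 4 against 1 at day 0, give a ratio of 124 with a 95% counting interval of 21.9 to 4945, so the size of the early rise is poorly fixed. The fitted early value of 6.49 ± 0.61 on the log2 scale rests on that 1 count. The late log2 fold change, between days with counts, was 2.08 ± 0.20.

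The enzymes took opposite late courses. Glul, glutamine synthetase, stood at 5.98, 7.10 and 6.70 FPKM at day 0, at 262, 292 and 299 at day 4, and at 77.7, 83.7 and 83.2 at day 8. At day 4 it was, with Tsc22d3, whose values overlapped with it, the most abundant of the 10, at place 235 of all genes, and it fell to 28.7% of that level without nearing day 0. Its log2 fold changes were 5.50 ± 0.08 early, −1.76 ± 0.06 late and 3.74 ± 0.07 over the whole process. Of the 50-base stretches of its transcripts, 11.9% occur on the same strand in other transcripts, chiefly the pseudogene Glns-ps1. For the other 9 genes this share was at most 0.456%. On the opposite strand the share was 2.05% for Glul and at most 0.643% for the other 9 genes. Hsd11b1 stood at 0.73, 0.53 and 0.36 FPKM at day 0, at 34.8, 43.1 and 51.8 at day 4, and at 123.32, 139.71 and 152.57 at day 8. No days overlapped, and the log2 fold changes were 6.37 ± 0.22 and then a further 1.73 ± 0.11. With Rasd1 it was 1 of the 2 genes of this set called up in both steps, as were 1.47% of all tested genes. The early value of Hsd11b1 rests on 20, 13 and 10 counts in the day 0 samples. It ranged from 4.83 to 6.66 over the other settings.

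Lcn2, the secreted lipocalin, stood at 1.59, 1.12 and 1.47 FPKM at day 0, at 102, 103 and 107 at day 4, and at 51.8, 55.7 and 66.5 at day 8. Each day lay apart from the others. The log2 fold change was 6.27 ± 0.13 early and −0.80 ± 0.08 late, and 55.65% of the day 4 mean was left. The early value rests on 69 counts at day 0, with a ratio of 77.6 and a 95% counting interval of 61.2 to 99.85. Lcn2 was called up and then not called, as were 6.8% of all tested genes. Fam107a had the largest fitted change of the 10 in the early and in the late step, although the counting interval of the early ratio of Rasd1 reaches past it, and over the whole process Rasd1 (8.57 ± 0.45), Hsd11b1 (8.10 ± 0.20) and Lcn2 (5.47 ± 0.14) changed more on the log2 scale. It was at 0.06, 0.05 and 0.08 FPKM at day 0, on 11.7 expected counts summed over 3 samples, then at 65.5, 64.5 and 67.7 at day 4, and at 1.18, 1.47 and 1.69 at day 8. Its log2 fold changes were 10.02 ± 0.13 and −5.46 ± 0.08, and 2.20% of the day 4 level was left. It held place 8 for the rise and place 8 for the fall among the 13154 tested genes. With only 11.7 counts at day 0, the early value depends on the scale and ranged from 5.98 to 10.18 over the other settings. The early ratio of the summed counts was 1073, with a 95% counting interval of 613.8 to 2076, so that the SE of 0.13 understates its uncertainty.

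Called up and then called down were 6 of the 10 genes, Fam107a, Fkbp5, Tsc22d3, Zbtb16, Glul and Nfkbia, beside 198 of all tested genes (1.51%). Ordered by the smaller of the 2 steps, these 6 held places 4, 12, 45, 48, 73 and 197 among the 198. What remained at day 8 thus ran from 2.20% of the day 4 mean for Fam107a over 7.17% for Fkbp5 to 48.4% for Nfkbia. The return to day 0 was not general either. Among these 6, the day 8 and day 0 values overlapped for Fkbp5 in FPKM and for none in CPM, and day 8 remained 4.56 ± 0.25 above day 0 on the log2 scale for Fam107a, 4.21 ± 0.16 for Zbtb16 and 3.74 ± 0.07 for Glul. The order of the 3 days was the same in FPKM and in CPM for all 10 genes.

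**Figure D2:**
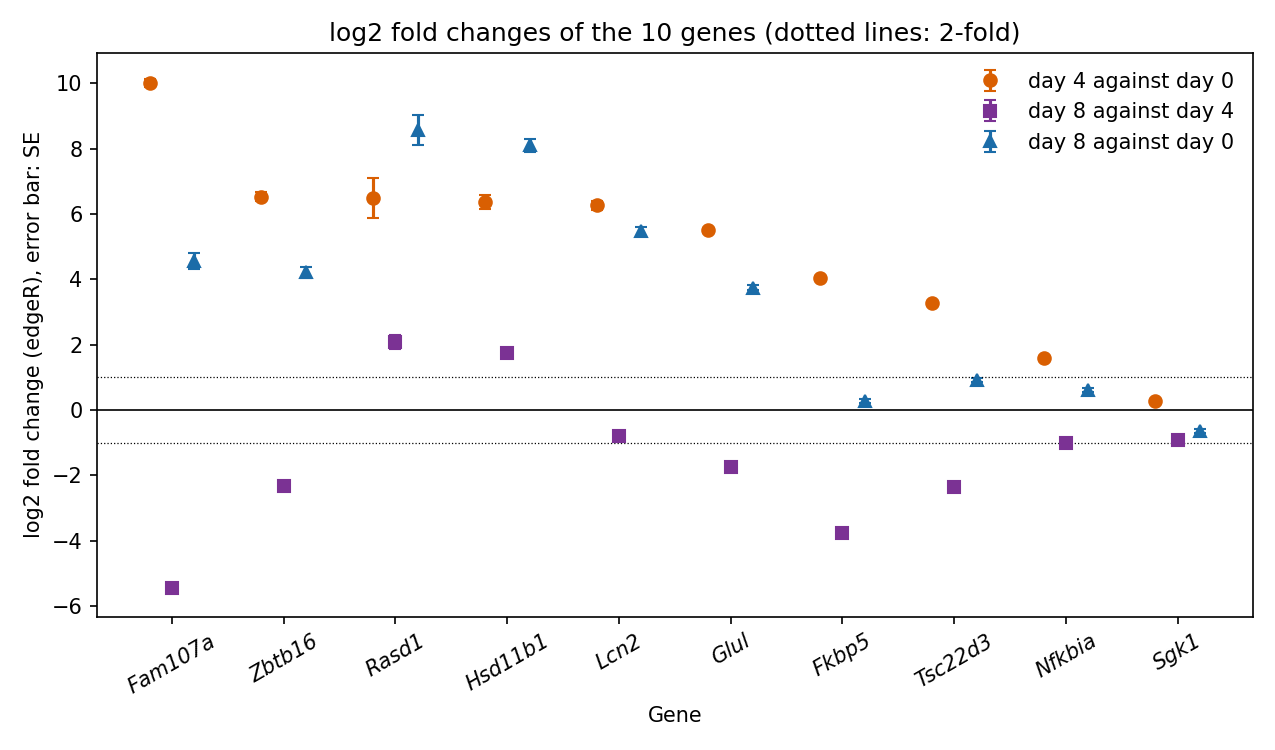
log2 fold changes (edgeR, vertical axis) of the 10 genes in the 3 comparisons, with error bars of 1 SE and dotted lines at a 2-fold change. The bars are too short where day 0 counts were few, as for Fam107a and Rasd1. All 10 circles (day 4 against day 0) lie above 0, from 0.26 for Sgk1 to 10.02 for Fam107a, whereas the squares (day 8 against day 4) lie below 0 for all but Hsd11b1 and Rasd1.

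RSEM also reports a gene's mean transcript length weighted by isoform, which changes when isoform use changes and was not used to pick these genes. Among the 10, only Tsc22d3, Sgk1 and Hsd11b1 were quantified with several transcripts. The length of Tsc22d3 was 1971.7 ± 5.02 bases (SD, n = 3) on day 0, 1994.6 ± 0.582 on day 4 and 2012.2 ± 5.36 on day 8, with no overlap between days. It thus kept growing while the level of the gene rose and fell. The steps were 1.16% and 0.884%, and the median size of a change over all genes with several transcripts was 0.243% and 0.173%. The lengths of Sgk1 were 2479.8, 2482.8 and 2482.3 bases and those of Hsd11b1 1355, 1355.9 and 1360.8 bases. Among 4141 tested genes with several transcripts, the length was higher without overlap in 8.77% at day 4 against day 0, in 8.45% at day 8 against day 4 and in 8.19% at day 8 against day 0.

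The receptor and its machinery were read next, from a list of genes for the receptor, ligand enzymes and chaperones, 18 of which were tested. Nr3c1, the glucocorticoid receptor, stood at 25.4, 26.6 and 27.2 FPKM at day 0, 16.7, 15.2 and 17.3 at day 4, and 28.8, 29.7 and 27.6 at day 8. It was thus lowest on the day the 7 genes that peaked at day 4 were highest, with no overlap between that day and the others. The log2 fold change of Nr3c1 was −0.62 ± 0.05 (edgeR adjusted p = 2e-08) early and 0.85 ± 0.05 (edgeR adjusted p = 1.8e-09) late, neither reaching 2-fold. Nr3c2, the mineralocorticoid receptor, which also binds glucocorticoids, was at 2.16 ± 0.147, 1.22 ± 0.168 and 1.41 ± 0.0907 FPKM (SD, n = 3). H6pd, which supplies Hsd11b1 with NADPH in the endoplasmic reticulum, rose from 12.8 ± 0.861 to 34.25 ± 1.225 FPKM at day 4 (log2 fold change 1.48 ± 0.06, edgeR adjusted p = 2.7e-12) and was at 32.9 ± 1.54 at day 8. Abcb1b, a drug efflux pump that exports steroids, fell from 7.38 ± 1.25 to 1.89 ± 0.0693 FPKM (log2 fold change −1.90 ± 0.11, edgeR adjusted p = 2.5e-10). With its neighbour Abcb1a, named after its values were seen, these were the 3 of 18 called early (1 up, 2 down), and 0 of 18 were called late, where 8 passed an adjusted p under 0.05 alone, as did 45.3% of all tested genes. Early, 9.77% of all tested genes were called up and 7.98% down. Hsd11b2, the enzyme that inactivates glucocorticoids, was at most 0.187 ± 0.0551 FPKM on any day and too low to be tested.

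Of the 9 tested relatives of the 10 genes, 0 were called up in any comparison. The shares called up over all tested genes were 9.77% early, 4.24% late and 10.3% over the whole process, so that 0 of 9 is near them. Of 13 paralogs, 9 passed the filter on low counts, 0 were called up and 2 down early, and 0 were called late, where 3 passed an adjusted p under 0.05 alone. Over all tested genes, 7.98% were called down early and 45.3% passed that adjusted p late. Fkbp4, the co-chaperone that competes with Fkbp5 for the receptor, was at 81.6 ± 4.31, 93.4 ± 4.22 and 92.5 ± 2.55 FPKM. Tsc22d1 was at 114 ± 3.51, 188 ± 12.3 and 191 ± 4.70 FPKM and Tsc22d4 at 69.3 ± 0.357, 79.0 ± 2.62 and 69.6 ± 1.13, while Tsc22d2 fell from 15.9 ± 0.350 to 6.34 ± 0.492 FPKM (log2 fold change −1.26 ± 0.05, edgeR adjusted p = 5.6e-12). Nfkbib was at 15.1 ± 0.328, 16.4 ± 0.584 and 15.7 ± 0.840 FPKM. Nfkbie fell early from 7.38 ± 0.368 to 2.62 ± 0.140 FPKM (log2 fold change −1.43 ± 0.11, edgeR adjusted p = 4.6e-09), the opposite direction to Nfkbia. Fam107b was at 14.6 ± 0.798, 10.6 ± 0.605 and 16.5 ± 1.39 FPKM, Zbtb20 at 2.75 ± 0.175, 3.64 ± 0.858 and 4.31 ± 0.163, and Sgk3 at 0.793 ± 0.0850, 1.22 ± 0.110 and 1.37 ± 0.115 FPKM. Sgk2, Zbtb32 and Rasd2 stayed under the filter.

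All the gene lists were chosen with earlier results of these data known, so their counts are a description and no list was tested as a whole. Other genes known to be induced by glucocorticoids were taken from a list of 39, of which 34 were tested. At day 4 against day 0, 24 were called up and 1 down, with a median log2 fold change of 1.67. Of all tested genes, 9.77% were called up and 7.98% down. At day 8 against day 4, 2 were called up and 15 down, with a median of −0.93, where the shares over all genes were 4.24% and 2.81%. At day 8 against day 0, 7 were called up and 2 down, with a median of 0.64, where the shares were 10.3% and 7.7%. Called up and then down were 13 of the 34, beside 1.51% of all tested genes. Among them were the clock gene Per1 at 8.41 ± 0.168, 27.6 ± 0.993 and 11.7 ± 0.470 FPKM over the 3 days, the mTORC1 inhibitor Ddit4 at 26.1 ± 0.390, 104.6 ± 4.99 and 41.4 ± 4.08, and the adipogenic factor Cebpd at 23.0 ± 2.24, 100.6 ± 1.93 and 17.95 ± 0.558. The metallothioneins, which bind zinc, were also highest at day 4, with Mt1 at 353.5 ± 23.5, 1374 ± 87.8 and 370.4 ± 19.5 FPKM and Mt2 at 53.25 ± 4.52, 252 ± 45.0 and 76.5 ± 13.4. Errfi1, a feedback inhibitor of EGFR, went from 15.4 ± 1.22 to 106 ± 2.67 and 24.3 ± 0.620 FPKM. Hif3a rose from 0.01 ± 0.01 to 5.16 ± 0.0764 FPKM and fell to 0.930 ± 0.0721, with log2 fold changes of 8.69 ± 0.21 (edgeR adjusted p = 4.8e-15) and −2.42 ± 0.10 (edgeR adjusted p = 2.1e-11). Map3k6 went from 4.22 ± 0.278 to 24.3 ± 1.11 and 3.89 ± 0.150 FPKM, and its day 0 and day 8 samples overlapped in FPKM.

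The rest of that list took other courses. Klf15, a factor of lipid and amino acid metabolism, and Pck1, the enzyme of glyceroneogenesis, were the 2 called up in both steps, as Hsd11b1 and Rasd1 were. Klf15 stood at 0.02 ± 0.02, 6.15 ± 0.841 and 15.7 ± 1.12 FPKM and Pck1 at 0.0833 ± 0.0115, 0.473 ± 0.192 and 10.7 ± 0.389. Angptl4, an inhibitor of lipoprotein lipase, rose from 11.8 ± 0.395 to 100.5 ± 2.92 FPKM (log2 fold change 3.16 ± 0.06, edgeR adjusted p = 1.1e-16) and was at 139 ± 3.91 at day 8. Klf9, a direct receptor target in many tissues, was at 14.8 ± 1.01, 29.1 ± 2.51 and 24.0 ± 0.875 FPKM, and its early log2 fold change of 1.04 ± 0.07 lost the call under 5 settings. Dusp1, a phosphatase of MAP kinases, missed the call early at 0.98 ± 0.09 and fell by 1.12 ± 0.09 late on the log2 scale (edgeR adjusted p = 7.1e-08). Without day 4 replicate 3 this late value of Dusp1 was −0.9961, which is not called. Fbxo32, a muscle ubiquitin ligase, was at 4.70 ± 0.547, 4.01 ± 0.4875 and 1.47 ± 0.0924 FPKM and was called down late and over the whole process (log2 fold change −1.56 ± 0.10, edgeR adjusted p = 1.1e-09). Cebpb was at 72.6 ± 8.70, 82.6 ± 4.15 and 105 ± 3.28 FPKM. Aqp1, a water channel, was the 1 gene called down early, from 65.5 ± 7.93 to 17.5 ± 2.83 FPKM (log2 fold change −1.83 ± 0.10, edgeR adjusted p = 6.3e-11). Of 32 genes of this list with a promoter window, 4 held the relaxed element (12.5%), Mt1, Map3k6, Slc10a6 and Trim63, beside 0.537% of all genes, and 0 held the full palindrome. The single arm was in 12.5% of these 32 genes and in 21.3% of all genes, and the κB-like site in 31.2% and 22.9%. Slc10a6 and Trim63 are named here after their values were seen.

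**Figure D3:**
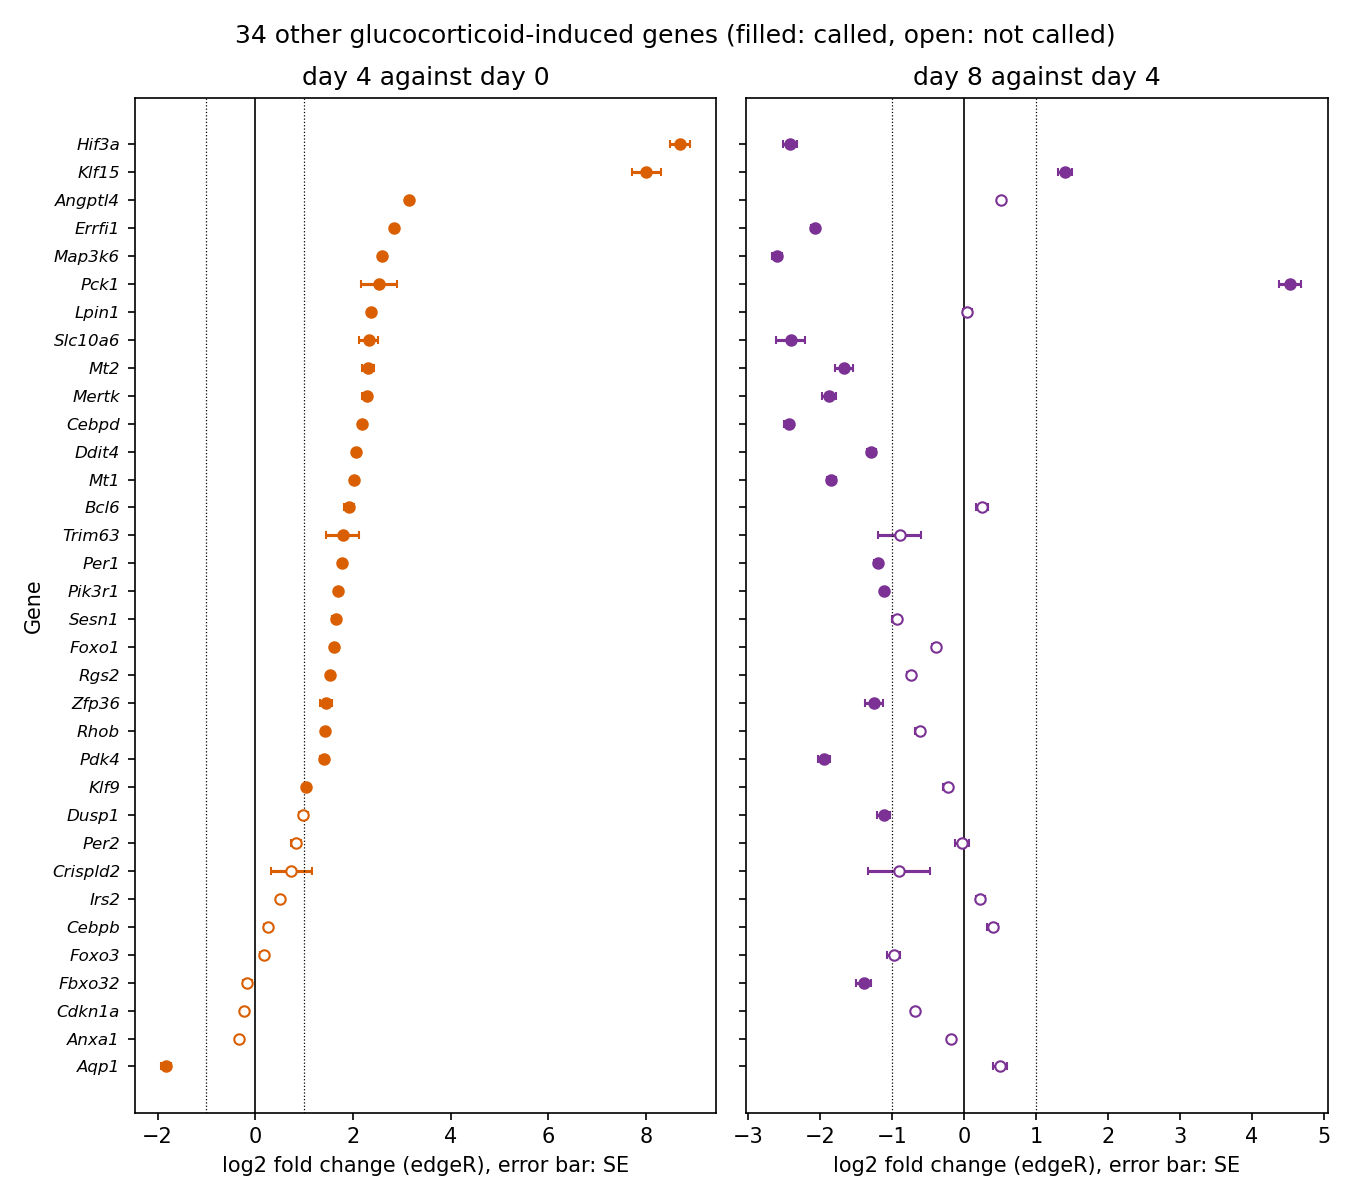
log2 fold changes (edgeR, horizontal axes, error bars of 1 SE) of the 34 other glucocorticoid-induced genes at day 4 against day 0 (left) and day 8 against day 4 (right), ordered by the left panel, with filled points for called genes and dotted lines at a 2-fold change. The bars are too short where day 0 counts were few, as for Hif3a. On the left 24 filled points lie above and 1 below 0, and on the right 2 lie above and 15 below.

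Inflammatory genes that glucocorticoids are known to repress went the other way. Of 22 listed, 21 were in the files, and Il6, Ccl20, Nos2, Tnf, Csf2 and Icam1 did not pass the filter on low counts. Of 15 tested, 0 were called up and 13 down at day 4 against day 0, with a median log2 fold change of −2.34. The shares over all tested genes were 9.77% and 7.98%. At day 8 against day 4, 6 were called up and 0 down, with a median of 0.89, where the shares were 4.24% and 2.81%. At day 8 against day 0, 1 was called up (Mmp13) and 12 down, where the shares were 10.3% and 7.7%. Ptgs2 (cyclooxygenase-2), the prostaglandin-forming enzyme, fell from 15.74 ± 3.075 to 0.440 ± 0.1 FPKM (log2 fold change −5.09 ± 0.16, edgeR adjusted p = 1.4e-13) and was at 0.523 ± 0.0513 at day 8. The neutrophil chemokine Cxcl5 fell from 23.7 ± 2.38 to 0.727 ± 0.162 FPKM and rose to 2.86 ± 0.276, and Cxcl1 went from 36.5 ± 4.34 to 2.68 ± 0.445 and 8.08 ± 0.490. Their late log2 fold changes were 2.02 ± 0.18 (edgeR adjusted p = 1.9e-07) and 1.64 ± 0.15 (edgeR adjusted p = 1.8e-07). The monocyte chemokine Ccl2 fell from 61.59 ± 10.95 to 5.93 ± 1.17 FPKM and was at 7.36 ± 0.717 at day 8, while the T cell chemokine Ccl5 went from 20.8 ± 0.712 to 2.68 ± 0.700 and 2.17 ± 0.486. The matrix proteases Mmp3, Mmp9 and Mmp13 all rose late, with Mmp3 at 18.5 ± 1.07, 2.603 ± 0.273 and 9.90 ± 1.25 FPKM, Mmp9 at 19.6 ± 1.65, 4.82 ± 0.887 and 10.2 ± 0.669 and Mmp13 at 2.81 ± 0.556, 1.67 ± 0.305 and 6.13 ± 0.958. The late call of Mmp9 (log2 fold change 1.12 ± 0.11) was lost without day 4 replicate 3 and with limma on log2(FPKM + 1), at 0.95 to 0.99.

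Nfkbia is itself a target of NF-κB as well as of the receptor, and Lcn2 is an acute phase gene, so both pathways were listed. Of 12 tested NF-κB subunits and feedback genes, 0 were called up and 2 down early (Nfkbie and Rel, the latter named after its values were seen). The shares over all tested genes were 9.77% and 7.98%, which these counts are near. Late, 0 were called and 5 passed an adjusted p under 0.05 alone, as did 45.3% of all tested genes. Nfkbiz, an inducible NF-κB cofactor, was at 12.04 ± 0.421, 6.52 ± 1.27 and 4.08 ± 0.228 FPKM. Early, 3 of the 12 passed an adjusted p under 0.05 upward and 7 downward, where 35.5% and 33.7% of all tested genes did. The feedback inhibitor Tnfaip3 (A20) was at 2.26 ± 0.206, 3.74 ± 0.379 and 2.07 ± 0.256 FPKM, highest at day 4 as Nfkbia was, with log2 fold changes of 0.79 ± 0.11 (edgeR adjusted p = 6e-06) and −0.81 ± 0.11 (edgeR adjusted p = 1.4e-05). Its partner Tnip1 was at 20.8 ± 1.095, 34.1 ± 1.74 and 32.4 ± 0.205 FPKM (early log2 fold change 0.77 ± 0.05, edgeR adjusted p = 2.2e-09). These changes were under 2-fold, and both genes are named after their values were seen. In the list of acute phase genes and Lcn2 partners, 8 of 11 tested genes were called up and 2 down early, and 1 was called up and 4 down late. The shares over all tested genes were 9.77% and 7.98% early and 4.24% and 2.81% late. The early falls were those of Mmp9, which binds Lcn2, and of Lrp2 (megalin), a receptor for it that is named after its values were seen, and the late rise was that of Mmp9. Haptoglobin (Hp) rose from 0.323 ± 0.0666 to 182 ± 32.1 FPKM and fell to 55.75 ± 3.029, with log2 fold changes of 9.17 ± 0.19 (edgeR adjusted p = 8.1e-16) and −1.66 ± 0.09 (edgeR adjusted p = 7.7e-10). Among the orosomucoids, plasma glycoproteins, Orm2 went from 0.220 ± 0.199 to 16.4 ± 1.40 and 3.63 ± 1.04 FPKM and Orm1 from 0.397 ± 0.221 to 56.4 ± 7.68 and 40.0 ± 1.926, and as near-identical copies they may share reads. Lbp, which binds bacterial lipopolysaccharide, went from 0.703 ± 0.0961 to 4.09 ± 0.633 and 1.26 ± 0.185 FPKM, and Steap4, a metalloreductase, from 0.0267 ± 0.0306 to 4.29 ± 0.240 and 5.39 ± 0.714.

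Around Glul, 12 genes of glutamine and glutamate handling were tested. Early, 2 were called up and 2 down, where 9.77% and 7.98% of all tested genes were. Late, 0 were called and 6 passed an adjusted p under 0.05 alone, as did 45.3% of all tested genes. With 12 genes, the early counts are near these shares. The rises were those of the glutamate transporter Slc1a3, from 9.91 ± 1.77 to 29.7 ± 4.77 FPKM (30.1 ± 2.77 at day 8), and of the glutamine transporter Slc1a5, from 59.0 ± 0.546 to 176 ± 10.9 (104 ± 9.08 at day 8). The falls were those of Slc38a1, from 1.11 ± 0.06 to 0.200 ± 0.0656 FPKM, and of the cystine-glutamate exchanger Slc7a11, from 1.80 ± 0.0889 to 0.377 ± 0.0808. Around Sgk1, 9 targets and partners were tested, of which 1 was called up and 1 down early, 2 up and 1 down late, and 2 up and 0 down over the whole process. The shares over all tested genes were 9.77% and 7.98% early, which the early counts are near. They were 4.24% and 2.81% late, and 10.3% and 7.7% over the whole process. Nedd4l, a ubiquitin ligase that SGK1 phosphorylates, fell from 4.24 ± 0.0802 to 1.66 ± 0.204 FPKM and rose to 3.43 ± 0.0529, whereas Ndrg2 went from 0.373 ± 0.189 to 5.6 ± 0.0781 and 2.30 ± 0.442. Ndrg1, whose phosphorylation is used as a readout of the kinase, was at 0.377 ± 0.140, 0.633 ± 0.142 and 2.12 ± 0.181 FPKM, and was called up late (log2 fold change 1.79 ± 0.20, edgeR adjusted p = 2.2e-06) and over the whole process (2.58 ± 0.22, edgeR adjusted p = 2.5e-08).

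The induction medium also held IBMX, which raises cyclic AMP, and immediate targets of that pathway were listed too. IBMX was removed with dexamethasone 2 days before the day 4 harvest, so these genes are no control for it. The part of cyclic AMP in the day 4 values was not tested. Of the 9 cyclic AMP targets tested, 2 were called up (Fosb and Rgs2) and 1 down (Nr4a2) early, and 0 up and 1 down (Fosb) late. The shares over all tested genes were 9.77% and 7.98% early and 4.24% and 2.81% late, so that these counts are near them. Fosb, a component of AP-1, varied widely at day 4, at 22.3, 10.9 and 43.6 FPKM, against 4.50, 5.74 and 10.7 at day 0 and 2.50, 1.95 and 2.93 at day 8. Rgs2, a regulator of G-protein signalling that glucocorticoids also induce, was at 21.4 ± 1.35, 58.8 ± 2.11 and 34.2 ± 0.679 FPKM. Nr4a2, an orphan nuclear receptor, was at 3.37 ± 0.150, 1.33 ± 0.140 and 1.69 ± 0.261.

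**Figure D4:**
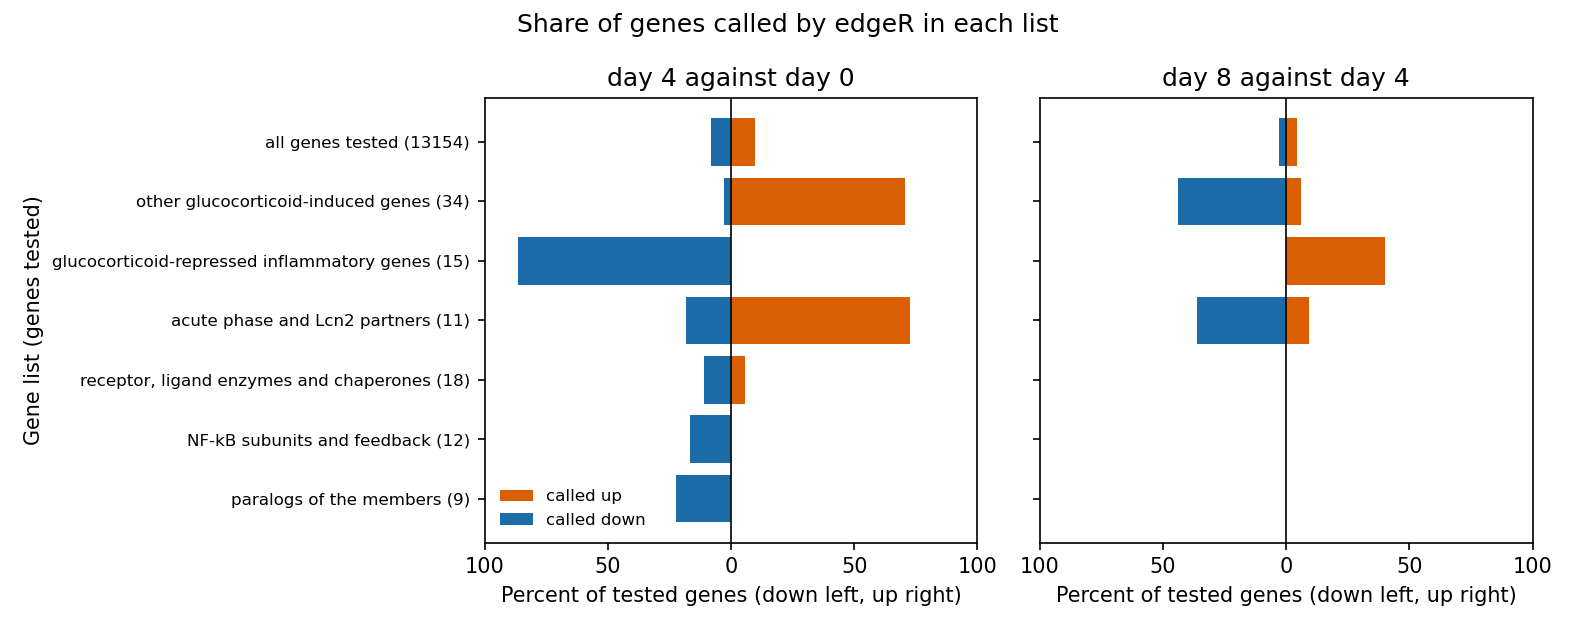
Percent of tested genes called up (right of 0) and called down (left of 0) by edgeR in each gene list and in all 13154 tested genes, at day 4 against day 0 and at day 8 against day 4, with the number of tested genes in parentheses. Of the 34 other glucocorticoid-induced genes, 24 were called up and 1 down early, and 2 up and 15 down late, with 17 not called late. Of the 15 repressed inflammatory genes, 0 were called up and 13 down early, and 6 up and 0 down late, with 9 not called late.

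The cell type on the label was read against markers. All 12 adipocyte markers were called up at day 4, where 9.77% of all tested genes were. Their summed FPKM went from 152 ± 2.76 at day 0 to 7617 ± 1366 at day 4 and 9970 ± 466 at day 8, with Lpl (lipoprotein lipase) the most abundant at day 0, Fabp4, the fatty acid carrier, at days 4 and 8, and Lep under 1 FPKM in every sample. The largest early rises were those of the adipokines Retn (resistin, 0.207 ± 0.0635, 309.9 ± 68.4 and 391.5 ± 5.77 FPKM) and Adipoq (adiponectin, 0.503 ± 0.194, 466.6 ± 93.5 and 819.8 ± 59.6) and of the lipid droplet protein Cidec (0.683 ± 0.0777, 773 ± 132 and 776 ± 19.1). Cfd (adipsin) and Slc2a4, the insulin-responsive glucose transporter, were called up again late, from 262.8 ± 61.2 to 608.9 ± 65.8 and from 22.3 ± 5.24 to 51.5 ± 4.204 FPKM. At day 0 the adipocyte name thus went against the markers. The sum differed between the 3 day 4 samples, at 6306, 7511 and 9032 FPKM, and Hsd11b1 stood in the same order in them, at 34.8, 43.1 and 51.8, as did Glul, Nfkbia and Lcn2, whereas the other 6 genes did not and Tsc22d3 stood in the reverse order. At day 8 the sums were 9434, 10270 and 10200 FPKM, an order shared by Glul and Nfkbia but not by the other 8 genes, Hsd11b1 and Lcn2 included. The part of the share of differentiated cells in these values was not tested. Of 12 preadipocyte and fibroblast markers, 6 were called down early, where 7.98% of all tested genes were. Dlk1, the preadipocyte factor, went from 827.6 ± 33.55 to 180.8 ± 13.85 and 415 ± 5.57 FPKM. Fibronectin (Fn1) went from 1145 ± 120 to 191 ± 28.1 and 309 ± 17.5 FPKM, smooth muscle actin (Acta2) from 300.9 ± 36.2 to 47.5 ± 11.3 and 79.4 ± 7.51, and the transcription factors Sox9 from 58.9 ± 2.58 to 27.05 ± 1.81 and 18.85 ± 1.015 and Gata2 from 10.04 ± 0.794 to 1.79 ± 0.172 and 3.68 ± 0.247. Pdgfra, named after its values were seen, rose early instead, at 59.6 ± 2.66, 102.1 ± 6.14 and 65.7 ± 1.41 FPKM. Its early log2 fold change was 0.84 ± 0.05 (edgeR adjusted p = 4.3e-10). Early, 1 of the 12 passed an adjusted p under 0.05 upward and 11 downward, where 35.5% and 33.7% of all tested genes did. At day 8 against day 0, 4 were higher and 8 lower without overlap in FPKM, where the shares were 30.1% and 46.3%. The sum of these 12 markers, led by Vim at days 0 and 4 and by Col1a2 at day 8, was 8625 ± 167, 5588 ± 304.5 and 7398 ± 96.7 FPKM. Since the labels' protocol speaks of DRG, an abbreviation used for dorsal root ganglia, 7 sensory ganglion markers were summed too, and came to 2.76 ± 0.129, 1.91 ± 0.0815 and 1.94 ± 0.112 FPKM, with Rbfox3, Prph, Scn10a, Calca and Isl1 under 1 FPKM in every sample. The most abundant was Avil at day 0, at 2.32 ± 0.272 FPKM (0.513 ± 0.0115 and 0.483 ± 0.0603 later), and Snap25, named after its values were seen, at days 4 and 8. Snap25 went against the sum, from 0.0267 ± 0.0462 to 1.12 ± 0.0473 and 1.10 ± 0.0493 FPKM, and was called up early (edgeR adjusted p = 3.3e-08). Macrophage markers, whose cells also express Lcn2 and Fkbp5, summed to 7.86 ± 0.982, 5.24 ± 0.416 and 5.47 ± 0.351 FPKM, led by Cd14, with Ptprc, Adgre1, Itgam and Csf1r under 1 FPKM in every sample, and all 5 endothelial markers were under 1 FPKM.

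Genes with the most similar course were named for each of the 10 by Pearson's r of log2 CPM over the 9 samples. These samples fall into 3 days, so that r mostly describes the 3 day means, and it is given with no p-value. It compares the shape of a course and takes no account of the size of the change. Nearest to Tsc22d3 was Errfi1 (r = 0.998), followed by Gpat4, an acyltransferase of lipid synthesis. Nearest to Fkbp5 were Adamtsl4 (r = 0.998) and Prdx6, which both had about the same mean at day 8 as at day 0, at 8.19 ± 0.552 and 8.05 ± 0.176 FPKM for Adamtsl4. Glul was followed most closely by Agt, the angiotensin precursor, at 19.5 ± 1.25, 892 ± 28.2 and 239 ± 3.29 FPKM (r = 0.9996), then by Ear2, whose close copies make its counts uncertain. Nearest to Fam107a were Cp, the copper carrier ceruloplasmin, at 9.93 ± 0.0781, 28.6 ± 1.18 and 14.9 ± 0.450 FPKM (r = 0.999), and the factor Foxc1. Zbtb16 was nearest to Il15ra and Rpn1, Nfkbia to Zadh2 and Dcun1d3, Lcn2 to Adamts9 and Stom, and Sgk1 to Ubxn2b and Thumpd1. Of the 2 genes that kept rising, Hsd11b1 was nearest to Aldh3b2 and to Hadhb, a subunit of the mitochondrial fatty acid oxidation complex, and Rasd1 to Slc25a34 and to Gys1, glycogen synthase. Gys1 stood at 26.9 ± 0.629, 59.45 ± 4.546 and 87.1 ± 6.66 FPKM and Hadhb at 25.3 ± 0.665, 75.4 ± 4.97 and 100.3 ± 2.32.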

How the data were processed

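RNA from 9 samples of 3T3-L1 cells (days 0, 4 and 8, 3 replicates each) was sequenced by a service provider. The study's methods name an Illumina platform and the labels a BGI library kit. The authors removed poor reads, aligned the rest (HISAT/Bowtie2) and quantified genes with RSEM; the submitters' processing notes also name CASAVA 1.4. The genome build is not given in the sources used here. The authors deposited RSEM's expected counts per gene, which are not normalized (29.8% are not whole), FPKM, scaled to effective length and depth, and RSEM's gene length (another unit, bases). Nothing says whether counting used strand.

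The 10 genes and the gene lists were chosen with earlier results of these data known. The text names all 10, and from each list the 3 largest rises and falls among called genes whose mean log2 CPM reached 1, the paralogs, a few standard receptor targets, and the 2 most similar genes of each of the 10. Further marker genes, beyond those named, are not reported here. The 26 symbols turned to dates were restored by gene ID, and 19040 IDs matched the reference table.

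Expected counts were rounded and fitted in R 4.3.3 with edgeR 4.0.16 (filterByExpr, TMM factors, glmQLFit and glmQLFTest on all 9 samples, a coefficient per day). P-values were adjusted by Benjamini-Hochberg over 13154 genes. SE is the size of the log2 fold change over the square root of F. It understates the uncertainty of changes from a day with few counts, as for Fam107a, Rasd1 and Hif3a at day 0. A prior count of 2 applied to log2 CPM. The detection limit of 3 counts was 0.147 to 0.165 CPM, and intervals cover counting error only. No replicates were alike within sampling noise (chi-square per gene 2.4 to 10.7). Same-numbered samples of different days did not deviate together (mean correlation 0.031), so the numbers were not taken as pairs. Alternatives were RLE and upper-quartile factors, library size alone, no filter, at least 10 counts in every sample, DESeq2 1.42.0, edgeR's exact test, limma 3.58.1 on log2(FPKM + 1) and log2(FPKM + 0.1), a model of 2 days only, a replicate block, and leaving out each sample. The tests were also run on simulated data, and the outcome is not given here. Promoter windows are from RefSeq, and shared 50-base stretches from GENCODE vM21 transcripts.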

Additional observations from a re-analysis of the deposited data

How the results depend on the processing

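None of the 10 genes changed direction in any comparison under any alternative run, and the late fall of Nfkbia was the only call among them that another setting changed where the gene was still tested. It was lost with RLE factors, DESeq2, no filter, at least 10 counts in every sample, and without day 4 replicate 2 or 3 or day 8 replicate 1 or 3. Requiring at least 10 counts in every sample removes genes silent at day 0. It left 831 genes called up early, 310 up and 173 down late, 1 of the 10 genes up late, and 0 up late and 4 up over the whole process among the other glucocorticoid-induced genes. With limma on log2(FPKM + 1), which shrinks the changes of low genes, 708 genes were called up and 565 down early, 224 up and 136 down late, and 753 up and 528 down over the whole process. With each sample left out, 9 of the 10 genes stayed called up early and 5 to 6 were called down late, and over all genes 1262 to 1347 were called up and 1036 to 1154 down early, 548 to 589 up and 345 to 394 down late, and 1376 to 1417 up and 1014 to 1076 down over the whole process. With the replicate block, 1287 genes were called up and 1053 down early, 556 up and 367 down late, and no count for the 10 genes changed. Same-numbered samples had correlations of −0.035 to 0.075, so the numbers were not shown to pair them. Paralogs near no change reversed in the late step. Fkbp4 (0.03) was at −0.0147 with library size alone, −0.0139 and −0.0138 with limma at pseudocounts of 0.1 and 1, and −0.0065 to 0.0843 with a sample left out (lowest without day 4 replicate 1). Nfkbib (−0.02) was at 0.0018 with DESeq2 and 0.0018 with RLE factors, and −0.0428 to 0.0437 with a sample left out (0.0437 without day 4 replicate 2, 0.0230 without day 8 replicate 2). Tsc22d1 (0.05) was at −0.00038 with library size alone. Library size alone and limma on log2(FPKM + 0.1) shifted the median of all genes at day 8 against day 0 by −0.11. Among the 10, changes against day 0 of genes nearly silent then moved most, with ranges of 1.14 to 8.33 early and 2.59 to 10.4 over the whole process for Rasd1, 5.98 to 10.18 and 1.20 to 4.72 for Fam107a, and 3.98 to 7.06 and 1.91 to 4.74 for Zbtb16. Of the log2 fold changes of named genes outside the 10, 26 values lost a call and 3 gained one (Dusp1 early). With limma on log2(FPKM + 1) the lost calls included the early ones of Nedd4l, Nr4a2 and Slc38a1 and the late ones of Nedd4l, Ndrg1 and Gata2. Further, 29 values of the 10 genes moved by more than the replicate spread, mostly with limma. Depth limits day 0 values, with 1 count for Rasd1 and 11.7 for Fam107a over 3 samples.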
